A study of Mus musculus with 12 samples.

Results

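The vascular miRNAs miR-143, miR-145 and miR-126 were measured in 12 small RNA libraries from mouse hippocampus. They were taken by name, and each tag (a distinct sequenced insert) was counted for the hairpin it matched exactly over its full length. These 3 miRNAs, with 6 arms in all, stood among 705 miRNAs with at least 1 exact count and 1087 annotated names. Each library came from 1 male C57BL/6 mouse (strain C57BL/6NCrl in the labels), 6 to 8 weeks old, without a genetic modification named in the labels. Mice were either untreated (NT) or killed at 0.5 h, 1 h, 3 h, 6 h or 24 h following electroconvulsive shock (ECS), a current that makes neurons throughout the brain fire together. Every time point has 2 libraries, named by the suffix -1 for the first time course and -2 for the second. The shock was the only treatment. The 2 time courses differ in mice and in libraries, and these cannot be told apart.

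miR-143 and miR-145 lie next to each other and are known from smooth muscle cells and pericytes, the contractile cells of the vessel wall. There they act in the switch between the contractile and the dividing state. miR-126 lies within Egfl7, a gene of endothelial cells, and is known from the cells that line vessels, where its 3p arm dampens brakes on the response to vascular endothelial growth factor. In whole hippocampus these cells are a minority among neurons and glia. In bulk tissue, fewer cells of a type and less RNA per cell cannot be told apart.

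In the GRCm38 annotation, Mir126a covers chr2:26591357-26591429 on the plus strand, in intron 7 of the Egfl7 transcript Egfl7-201, which has 10 exons. The same bases lie in exon 4 of Egfl7-206, a transcript with a retained intron. Mir126b lies on the opposite strand at chr2:26591363-26591420. None of the tags counted for the 3 miRNAs matched another miRNA, so no count was shared with a paralog.

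The mature 3p strand of miR-126 is shown because the sequenced tags began mostly at another base than the reference did. Of the 6 arms, 1 was matched to a mature entry of RefSeq (GRCm38.p6), at chr2:26591402-26591423 on the plus strand. Capitals mark bases 2 to 8 of each sequence, the seed that pairs with targets.
RefSeq mmu-miR-126a-3p: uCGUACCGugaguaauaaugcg
most frequent 3p tag: cGTACCGTgagtaataatgc
next 3p tag: cGTACCGTgagtaataatgcg
3p tag with the RefSeq start: tCGTACCGtgagtaataatg
3p tag equal to the RefSeq sequence: tCGTACCGtgagtaataatgcg
3p tag that starts 1 base earlier: cTCGTACCgtgagtaataat
most frequent 5p tag: cATTATTActtttggtacgc
next 5p tag: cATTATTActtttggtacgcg
The first 3p tag held 2128 counts, which was 49.6% of the 4289 counts of the arm, and the next held 940. Both start 1 base after the RefSeq start, so their bases 2 to 8 are shifted by 1. The tag equal to the RefSeq sequence held 307 counts, or 7.16%. The first 5p tag held 1428 counts, 72.6% of the 1966 counts of that arm, and the next 368.

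Over all libraries, 73.3% of miR-126-3p counts started 1 base after the RefSeq start, 22.0% started at it, and 4.27% started 1 base before it. The shifted start held 67.7% to 87.9% of the counts in 11 libraries. NT-1 stood apart, with 37.7% at the shifted start and 42.0% at the RefSeq start, on 69 counts. This library also had 51.4% of its miRNA counts in tags of 18 or 19 nt, against at most 16.9% in the others, and the part of that in the shares was not tested. As background, 319 mature RefSeq sequences had at least 100 counts. Their most common start was the RefSeq start for 282 of them (88.4%) and 1 base later for 14 (4.39%), and the median share at the RefSeq start was 97.4%. In contrast to its 3p arm, miR-126-5p began at a single base in nearly every read, on average in 99.8% ± 0.302 of counts in the first and 99.2% ± 1.01 in the second time course (SD, n = 6 each).

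**Figure D1:**
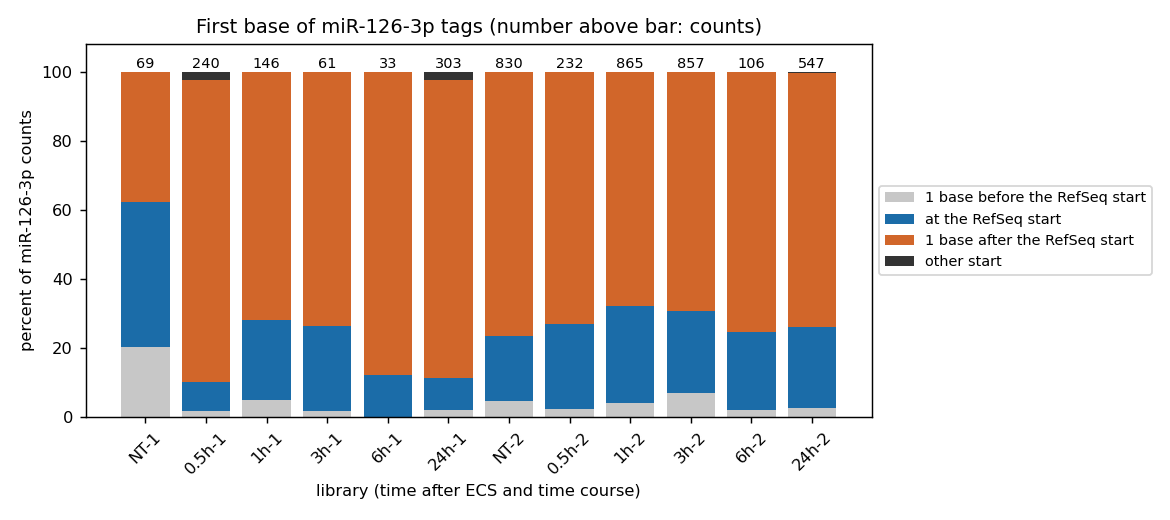
First base of miR-126-3p tags in each library, as percent of the arm's counts on a linear axis, with the counts written above each bar. The start 1 base after the RefSeq start made up most of every bar but that of NT-1, where it held 37.7%.

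The libraries held between 439336 (6h-1) and 4282006 (NT-2) exact miRNA counts, and at each time point the first time course held fewer. miRNA counts made up 10.1% to 32.7% of accepted reads in the first time course and 50.9% to 69.6% in the second. Levels are given as percent of the exact miRNA counts of a library.

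miR-143-3p, the guide strand of miR-143, was by far the most abundant of the 6 arms and held 961527 counts over the 12 libraries. In the first time course it made up between 6.27% (NT-1) and 14.4% (6h-1) of miRNA counts (median 7.70%). The second time course ran from 0.542% (24h-2) to 1.62% (NT-2), around a median of 0.989%. The ranges of the time courses did not overlap, and how many of all arms were separate in this way was not counted. The arm ranked 1 among all arms in 3h-1 and 6h-1, between 1 and 5 in the whole first time course, and between 9 and 23 in the second. Counting error was small beside these differences, since the widest Wilson 95% interval, that of 6h-1, ran from 14.3% to 14.5%.

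The passenger strand miR-143-5p held 3871 counts. The first time course ranged from 0.00318% (NT-1) to 0.151% (3h-1), its median being 0.00914%, and the second from 0.000151% (6h-2) to 0.00819% (0.5h-2), its median being 0.00472%. The time courses overlapped. The library 3h-1 alone gave 2273 of the counts, and 6h-2 had only 2, under the 3 counts that were taken as the limit of detection.

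In the GRCm38 annotation Mir143 covers chr18:61649196-61649258 and Mir145a chr18:61647825-61647894, both on the minus strand, with 1301 bases between them and no other gene annotated across either. miR-145 was far rarer than its neighbour, and its passenger strand was seen more often than the 5p strand that is known as the guide. miR-145-3p held 1246 counts and miR-145-5p 218. The 3p arm ranged from 0.00446% (3h-1) to 0.0212% (6h-1) over the libraries of the first time course (median 0.0105%). In those of the second it lay between 0.000876% (24h-2) and 0.00236% (NT-2), median 0.00192%. All first time course libraries lay above all of the second, again without a count over all arms. As percent of accepted reads the time courses overlapped for miR-145-3p, with 0.00136% in 3h-1 and 0.00153% in 6h-2. On that scale miR-143-3p stayed separate, with at least 1.45% (6h-1) in the first and at most 0.914% (NT-2) in the second. miR-145-5p was carried by 6 to 35 counts a library in the first time course and by 3 to 37 in the second, between 0.000227% and 0.00328% of miRNA counts. At this depth its order among libraries is mostly undetermined, as the Wilson 95% interval of 6h-2 alone ran from 7.72e-05% to 0.000668%.

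For miR-126 the more frequent arm varied from library to library. miR-126-3p, the arm named above for its endothelial role, ranged from 0.00406% (3h-1) to 0.0137% (0.5h-1) over the first time course (median 0.00912%), and from 0.00595% (0.5h-2) to 0.0221% (1h-2) over the second (median 0.0163%). Those ranges overlapped. miR-126-5p, the other strand, ranged from 0.00734% (24h-1) to 0.0262% (6h-1) in the first and from 0.00176% (3h-2) to 0.0123% (6h-2) in the second, with medians of 0.0129% and 0.00377%. Each second library lay below the first of its time point, but 6h-2 lay within the range of the first.

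**Figure D2:**
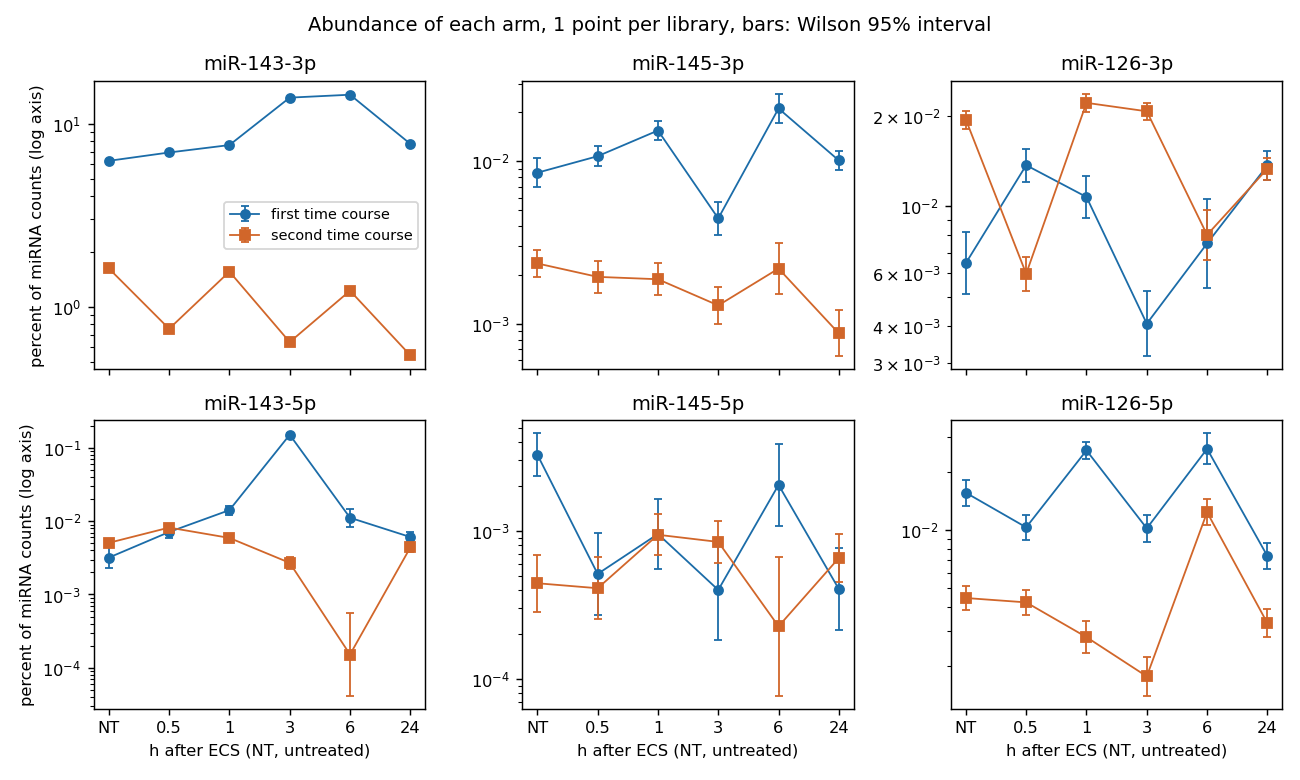
Percent of exact miRNA counts of each arm (log axis) against time after ECS, with 1 point for each library and bars for the Wilson 95% interval, which covers counting error only. The time courses are separate for miR-143-3p and miR-145-3p and overlap for the other 4 arms. How many of all arms were separate was not counted, while 151 of 469 (32.2%) were called between time courses.

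Whether the 2 time courses agreed was asked first, since they are the only replicates. The levels of miR-143-3p and miR-145-3p were lower in the second, on average 8.99-fold and 6.68-fold in percent of miRNA counts. In edgeR's quasi-likelihood test with time point as a covariate, the log2 fold change of second against first was -2.59 (SE 0.48, adjusted p = 0.00220) for miR-143-3p. It was -2.02 (SE 0.46, adjusted p = 0.00619) for miR-145-3p. Thus 2 of the 6 arms passed the test at an adjusted p under 0.05, both lower, beside 151 of all 469 arms tested (32.2% in either direction, with 19.8% higher and 12.4% lower). A share of 2 in 6 is near that background. At an unadjusted p under 0.05 there were 4 of the 6 arms, beside 215 of the 469 (45.8%). Both arms stayed below an adjusted p of 0.05 under every alternative tried.

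The other arms gave fold changes that did not pass. For miR-126-3p the log2 fold change was 1.30 (SE 0.57, adjusted p = 0.0894), and for miR-126-5p it was -1.21 (SE 0.48, adjusted p = 0.0652). DESeq2 called both, with adjusted p = 0.0240 and 0.0198, beside 222 of all 469 arms. miR-143-5p (-1.03, SE 0.94, adjusted p = 0.404) and miR-145-5p (-0.07, SE 0.66, adjusted p = 0.945) did not pass either. The value of miR-143-5p depended on the fit, being -2.77 (adjusted p = 0.0349) without the pairing by time point and -0.39 without 6h-1. Under scaling to the total miRNA count the median log2 fold change of all arms was -0.30 against 0.29 in the main fit, and the calls split into 49 higher and 113 lower in place of 93 and 58. The labels of the untreated libraries were followed here, and without both of them miR-143-3p had a log2 fold change of -2.93 and miR-145-3p of -2.28, each still called.

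After ECS, the time points could not be set apart from untreated tissue. For miR-143-3p the mean of the 2 libraries was 3.94% ± 3.29 (SD, n = 2) in untreated mice and 3.86% ± 4.39, 4.60% ± 4.30, 7.26% ± 9.36, 7.81% ± 9.32 and 4.15% ± 5.10 (SD, n = 2 each) at 0.5 h, 1 h, 3 h, 6 h and 24 h. In order from the lowest these were 0.5 h, untreated, 24 h, 1 h, 3 h and 6 h, and no neighbours in that order differed by more than the larger of their SDs. The same held for every other arm, with the exception of 1 pair of neighbours (3 h and 1 h) in miR-145-5p. These means and SDs hold the gap between the time courses. In the second time course alone untreated tissue had the highest level of miR-143-3p and 24 h the lowest, while in the first untreated tissue had the lowest and 6 h the highest.

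edgeR called 0 of the 6 arms at any time after ECS, as it did 0 of 469 arms over the whole table (0% at each time). This fit had no term for the time course, so the gap between the time courses entered its spread. The SE of miR-143-3p was 1.46 to 1.49 in it, against 0.48 in the comparison of the time courses. A fit with the time course as a replicate block also called 0 of the 6 arms, and its share over all arms is not given here. At an unadjusted p under 0.05 the fit without that block gave 9, 2, 10, 9 and 7 arms at the successive times from 0.5 h to 24 h (1.92%, 0.426%, 2.13%, 1.92% and 1.49%). Among these was 1 of the 6 arms, miR-143-5p at 3 h, with a log2 fold change of 4.56 (SE 1.74, unadjusted p = 0.0217, adjusted p = 0.999). This rested on 3h-1, without which it was -0.13. DESeq2 called 1 arm at 0.5 h and 2 at 3 h over the whole table, none of the 6. The arms with the largest fitted changes at the other times were miR-145-5p at 0.5, 1 and 24 h (-1.58, SE 1.20, -0.85, SE 1.17, and -0.97, SE 1.18) and miR-126-5p at 6 h (1.31, SE 1.10).

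Within each time course the untreated library is a single value, which all 5 later libraries share. In the first, miR-143-3p lay above NT-1 in 5 of 5 libraries, by 1.11-fold at 0.5 h, 1.22-fold at 1 h, 2.22-fold at 3 h, 2.30-fold at 6 h and 1.24-fold at 24 h. In the second it lay below NT-2 in 5 of 5 libraries, at between 0.335 and 0.961 times its level. The labels of the untreated libraries set the size of these folds. Exchanging them would keep 5 of 5 above in the first and 5 of 5 below in the second. That outcome is fixed by the gap between the time courses and says nothing of ECS. As labelled, the 2 time courses moved in opposite directions, and the difference was not tested. NT-1, the baseline of the first, had 51.4% of its miRNA counts in tags of 18 or 19 nt. How many of all arms lay above NT-1 or below NT-2 in 5 of 5 libraries was not counted. miR-145-3p was above NT-1 in 4 of 5 and below NT-2 in 5 of 5 libraries. miR-126-3p was above NT-1 in 4 of 5 and above NT-2 in 2 of 5.

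**Figure D3:**
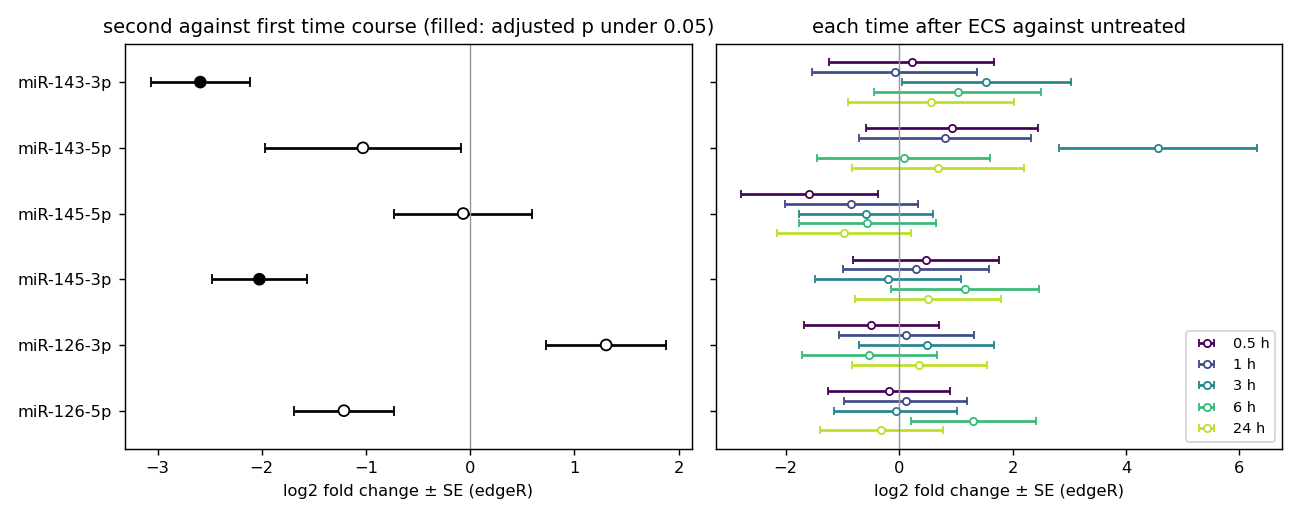
edgeR log2 fold changes ± SE of the 6 arms, on the left for the second against the first time course and on the right for each time after ECS against untreated mice. Filled points, miR-143-3p and miR-145-3p on the left, had an adjusted p under 0.05, and no point on the right did.

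Ratios between arms of 1 library do not depend on how the library was scaled. The exact permutation test (two-sided) over the 64 ways to swap the 2 libraries of a time point can reach p = 0.03125 at best, and over the 6 ratios no adjusted p fell under 0.05. The ratio of miR-143 to miR-126, both arms summed, was between 209.9 and 982.0 in the first time course and between 28.7 and 75.0 in the second. No library of the second reached the lowest of the first. How many ratios between other miRNAs were separate in this way was not counted. The log2 ratio was 8.54 ± 0.77 against 5.68 ± 0.59 (SD, n = 6 each), a difference of -2.86, lower in 6 of 6 pairs of libraries (two-sided exact permutation test, p = 0.03125, adjusted p = 0.0625).

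miR-145 counts were 0.343 to 0.690 times those of miR-126 in the first time course. In the second they were 0.0929 to 0.233 times, again without overlap and without a count over other miRNAs. The mean log2 ratio was -1.03 ± 0.33 against -3.03 ± 0.48 (SD, n = 6 each), lower in 6 of 6 pairs of libraries (two-sided exact permutation test, p = 0.03125, adjusted p = 0.0625). Between the neighbours miR-143-3p and miR-145 the ratio was 463.4 to 2835 in the first and 296.6 to 574.8 in the second, which overlapped, and the mean log2 difference was -0.87 (two-sided exact permutation test, p = 0.156, adjusted p = 0.188).

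The balance of the strands of miR-126 varied widely. miR-126-3p counts were 0.417, 1.33, 0.418, 0.401, 0.290 and 1.86 times those of miR-126-5p in NT-1, 0.5h-1, 1h-1, 3h-1, 6h-1 and 24h-1. In the second time course they were 4.34, 1.40, 7.83, 11.7, 0.651 and 4.01 times in the same order. Thus the 5p strand prevailed in 4 libraries of the first time course and in 1 of the second, 6h-2. The mean log2 ratio was -0.72 ± 1.09 in the first and 1.75 ± 1.56 in the second (SD, n = 6 each), a difference of 2.47, higher in 6 of 6 pairs of libraries (two-sided exact permutation test, p = 0.03125, adjusted p = 0.0625). At 0.5 h the ratios were nearly equal. Of 141 miRNAs with both arms tested, 43 (30.5%) changed their ratio of 3p to 5p in 1 direction at 6 of 6 time points, 18 of them upward (12.8%) as miR-126 did. miR-126 ranked 34 by the size of the change.

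For miR-145 the log2 ratio of 5p to 3p was -3.48 ± 1.15 in the first and -1.61 ± 1.09 in the second time course (SD, n = 6 each), higher in 5 of 6 pairs of libraries (two-sided exact permutation test, p = 0.0938, adjusted p = 0.141). For miR-143 the log2 ratio of 3p to 5p was 9.51 ± 1.59 and 8.39 ± 2.20 (two-sided exact permutation test, p = 0.344, adjusted p = 0.344).

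**Figure D4:**
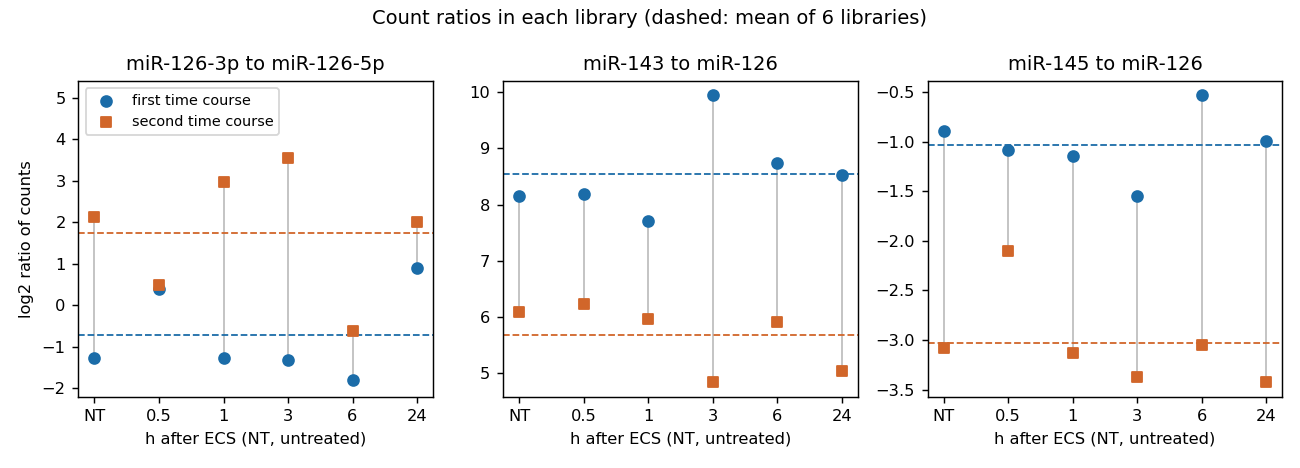
Log2 ratios of counts in each library against time after ECS, joined within a time point, with dashed lines for the means of the 6 libraries of a time course. In every pair the second time course lies below the first for the ratios of miR-143 and miR-145 to miR-126. It lies above for miR-126-3p to miR-126-5p, by little at 0.5 h. Ratios between other miRNAs were not counted.

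The ends of the tags were compared in the same way. miR-143-3p was cut at a fixed 5′ end, as 99.8% ± 0.0941 and 99.5% ± 0.101 (SD, n = 6 each) of its counts shared a start in the first and second time course. Tags of 20 nt held 54.9% of its counts and those of 21 nt 35.4%. In NT-1 42.7% of them were of 18 or 19 nt. miR-145-3p kept its start in 96.7% ± 2.69 of counts in the first time course and in 80.9% ± 11.6 in the second (SD, n = 6 each), lower in 5 of 6 pairs of libraries and equal in the pair at 6 h (two-sided exact permutation test, p = 0.0625, adjusted p = 0.104).

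Single tags of miR-145 also differed. A 22-nt tag of miR-145-3p that starts 2 bases before the most common start had 43 counts in the second time course. It had 0 of 876 in the first, which allows a share of up to 0.342%. The 23-nt tag of miR-145-5p had 53 counts in the second and 0 of 81 in the first, which allows up to 3.70%. Its 19-nt tag had 3 counts in the second and 48 in the first, 33 of them in NT-1, the library with short tags.

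Tags that left the hairpin sequence in their last 1 to 3 bases, through added or changed bases, were more frequent in the second time course for all 4 arms that had at least 20 counts in every library. Their share was 10.5% ± 2.99 against 20.1% ± 4.78 for miR-143-3p, 4.91% ± 2.88 against 18.7% ± 5.99 for miR-145-3p, 29.0% ± 5.49 against 41.6% ± 7.83 for miR-126-3p and 13.6% ± 7.59 against 34.3% ± 4.20 for miR-126-5p (SD, n = 6 each). All 4 were higher in 6 of 6 pairs of libraries (two-sided exact permutation test, p = 0.03125 each, adjusted over 20 measures p = 0.0893). miR-143-5p, with 5 time points, went from 18.6% ± 10.1 to 25.3% ± 5.32 (SD, n = 5 each) and was higher in 4 of 5 pairs (two-sided exact permutation test, p = 0.313, adjusted p = 0.368). Of all 20 measures of starts, lengths and 3′ ends, 0 had an adjusted p under 0.05. The smallest p this permutation test can reach is 0.03125, or 0.0625 with 5 time points. An adjusted p under 0.05 would need most of the 20 measures at 0.03125, so the 0 was nearly fixed in advance.

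In the second time course these bases were most often A or T (U in the RNA). In miR-143-3p the share of tags with T was 1.74% ± 2.02 in the first and 10.2% ± 4.01 in the second and was higher at 6 of 6 time points, while that with A was 3.90% ± 1.49 and 4.44% ± 0.822 (SD, n = 6 each). miR-126-5p was higher at 6 of 6 time points for both bases, with A at 5.59% ± 3.25 and 17.6% ± 1.29 and T at 4.65% ± 5.38 and 13.3% ± 2.53 (SD, n = 6 each). These shares by base were not tested.

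Among 189 arms with enough counts, the share of tags that did not match the hairpin to the end was higher in the second time course at 6 of 6 time points in 34 (18.0%), and these included the 4 arms. Over all miRNAs together that share was 17.3% ± 3.91 in the first and 15.3% ± 2.98 in the second time course (SD, n = 6 each), higher in the second at 2 of 6 time points.

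**Figure D5:**
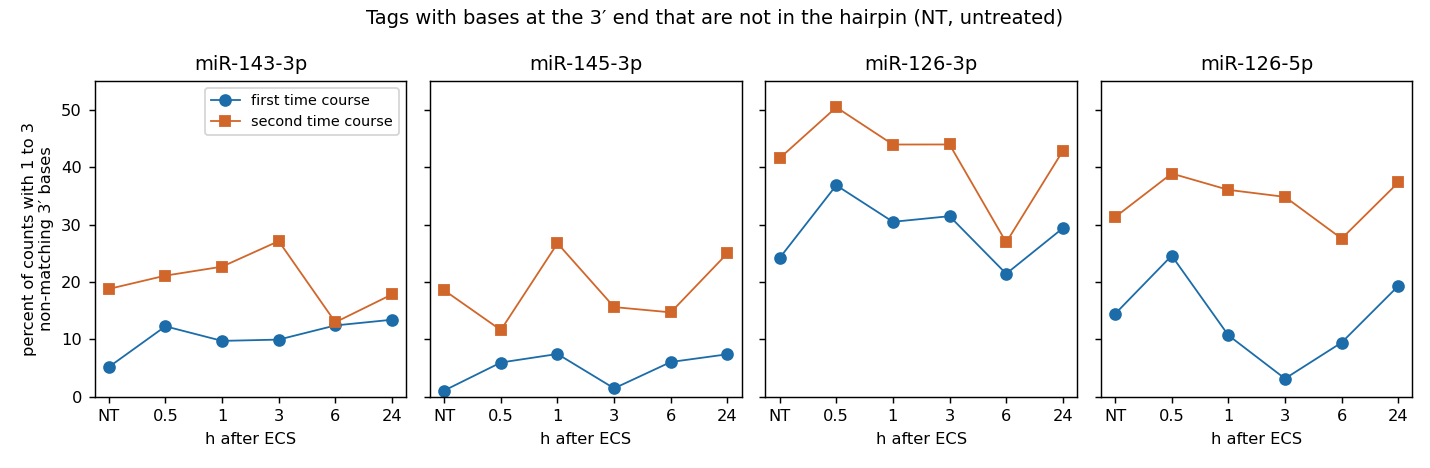
Percent of counts with 1 to 3 bases at the 3′ end that are not in the hairpin, for 4 arms against time after ECS, with 1 point for each library. The second time course lies above the first at every time point in each panel, by little for miR-143-3p at 6 h.

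Arms that followed the members over the libraries were sought among 212 arms that reached 10 counts in each library, by the mean of the Pearson correlations of log2 percent within the 2 time courses (6 libraries each, which share depth and library handling). For miR-143-3p these were miR-192-5p (0.79), miR-1969-5p (0.72) and miR-128-3p (0.71). miR-145-3p was most like miR-380-5p (0.80), miR-369-3p (0.72) and miR-137-3p (0.72), and miR-126-3p was most like miR-151-3p (0.93), miR-434-5p (0.91) and miR-129-5p (0.87). The neighbours miR-143-3p and miR-145-3p correlated at -0.03 in the first and 0.83 in the second time course. The strands of miR-126 correlated at -0.15 and -0.63.

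miRNAs of other cells were listed beside them. Of 5 tested arms of mural and mesenchymal miRNAs, 0 were higher and 0 lower in the second time course, with a median log2 fold change of -0.18. That median is the value of miR-199a-3p, entered again as miR-199b-3p because the tags are shared. The other arms ran from -1.89 for miR-133a-5p to 1.65 for miR-10a-5p. Over all arms tested 19.8% were higher and 12.4% lower, with a median of 0.29. The summed level of the mural and mesenchymal list was 0.333% to 1.27% of miRNA counts in the first and 0.837% to 1.83% in the second. Most of it was miR-1a-3p, which alone ran from 0.256% to 1.09% in the first and from 0.767% to 1.68% in the second. The mean of miR-199a-3p went the other way, from 0.0765% ± 0.0335 in the first to 0.0414% ± 0.0147 in the second (SD). The higher sum is thus no measure of mural cells. The lead arms were miR-1a-3p, known from heart and skeletal muscle, with a log2 fold change of 1.28 (SE 0.49, adjusted p = 0.0606), and miR-199a-3p at -0.18 (SE 0.52, adjusted p = 0.797), which shares tags with miR-199b.

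Of 10 endothelial arms, 2 were higher and 0 lower (median 0.24), near the 19.8% of all arms that were higher, with a summed level of 0.966% to 1.32% and 0.652% to 1.64%. Their most abundant arms miR-222-3p and miR-24-3p had log2 fold changes of -0.33 (SE 0.46) and 0.29 (SE 0.52), with adjusted p = 0.603 and 0.679. Of 7 arms of blood cell miRNAs, 2 were lower and 0 higher (median 0.58) beside 12.4% and 19.8% of all arms, with a summed level of 0.133% to 1.15% in the first and 0.0379% to 0.257% in the second time course. The 2 were the lead arms, miR-142-5p of leukocytes at -2.60 (SE 0.58, adjusted p = 0.00619) and miR-144-3p of red cells at -3.82 (SE 0.65, adjusted p = 0.00189). The other 5 arms of the list were not called and ran from -1.50 for miR-144-5p to 2.42 for miR-486-3p, with miR-451a-5p, also of red cells, at 1.59 (adjusted p = 0.0665). The part of blood cells in the lower levels of miR-143-3p and miR-145-3p was not tested.

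Of 10 neuronal arms, 1 was lower and 0 higher (median -0.07), near the 12.4% of all arms that were lower, at 14.3% to 31.2% of miRNA counts in the first and 6.09% to 16.7% in the second time course. The lead arms miR-124a-3p and miR-128-3p were present in every library, at 1.01% to 26.2% and 2.67% to 8.88% of miRNA counts. Their log2 fold changes were -0.91 (SE 0.54, adjusted p = 0.200) and 0.29 (SE 0.42, adjusted p = 0.616). None of the 4 lists had a call after ECS at any time.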

How the data were processed

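Small RNA of about 18 to 24 nt, per the labels, was cloned from hippocampus with the Illumina DGE small RNA kit and sequenced on a Genome Analyzer IIx. The authors deposited, for each library, distinct tags with raw read counts, after adapter removal and with no normalization. PCR without molecular identifiers means that intervals and limits cover counting error only. Tags were matched exactly over their full length to the miRNA hairpins of GENCODE M21 (GRCm38), with ties split equally, and counted by arm. The authors' own alignment used NCBI assembly 37 and was not used here. Exact matching omits reads with changed 3′ ends.

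Arms that reached 10 counts in 2 or more libraries were tested with edgeR 4.0.16 (TMM, quasi-likelihood, R 4.3.3), adjusted by Benjamini-Hochberg over all arms. The time courses were compared with time point as a covariate, and ECS with untreated tissue in 1 fit of 6 groups, in which all groups share the spread. That fit has no term for the time course, which was added as an alternative. Ratios (pseudocount 0.5 counts) and tag shares (at least 20 counts in a library) were compared by the exact permutation test of flips within time points. Counting and permutation tests ran in Python 3.11.15 (scipy 1.17.1, pandas 2.3.3, numpy 2.4.6), with DESeq2 1.42.0 as another tool, and the edgeR step was tested on simulated data. Alternatives were other scalings, filters and tag assignments, fits with and without pairing, and each library left out.

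The suffix of a library is the study's time course. Deviations from the time point means correlated at 0.31 to 0.78 over 15 pairs of time points, so libraries of a suffix deviated together. In the study's own listing of read classes the 2 untreated libraries stand under the opposite suffixes. The labels were followed, and a fit without both was added after the data were seen. No pair of libraries agreed within sampling noise (lowest chi-square per degree of freedom 32.3 over 66 pairs). Mice were individual animals. Between time courses, p-values measure the spread of mice and libraries within them, since each side is 1 time course. In the main ECS fit the spread also holds the gap between the time courses.

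The members and lists were chosen with earlier results of these data known. Genes named are the 6 arms, the 2 most abundant arms of each list and the 3 arms most like the main arm of each member. At each time after ECS only the member arm with the largest fitted change is given. Marker lists were mural and mesenchymal, endothelial, blood cell and neuronal miRNAs.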

Additional observations from a re-analysis of the deposited data

Results flagged for a closer look

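In 64 sets of 6 libraries (5 where a measure lacked counts), 11 had a library at the edge that stood apart by Dixon's test at its 95% critical value, and chance flags about 1 in 20, or 3.2 sets. In the first time course, 3h-1 had miR-143-5p at 0.151% of miRNA counts and a log2 ratio of miR-143-3p to miR-145 of 11.47. NT-1 had 42.7% of miR-143-3p and 65.2% of miR-126-3p counts in tags of 18 or 19 nt, and 37.7% of miR-126-3p counts at the shifted start. In 24h-1, 96.3% of miR-143-5p counts were at the most common start. In the second time course, 6h-2 had miR-126-5p at 0.0123%, a log2 ratio of miR-143-3p to miR-143-5p of 12.66 on 2 counts of the 5p arm, and 7.85% of miR-143-3p counts in tags of 18 or 19 nt. The log2 ratio of miR-145 to miR-126 was -2.10 in 0.5h-2, and 97.3% of miR-126-5p counts in 3h-2 were at the most common start.

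miR-143-3p went up from its untreated library in 5 of 5 libraries of the first time course (mean log2 change 0.62) and down in 5 of 5 of the second (-0.89). The difference was not tested, each set of 5 shares 1 untreated library, and how many of all arms did the same was not counted.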

How the results depend on the processing

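The lower levels of miR-143-3p and miR-145-3p in the second time course were called under every alternative, with log2 fold changes of -2.91 to -2.41 and -2.30 to -1.82 when 1 library was left out. Arms called between time courses numbered 85 of 212 with at least 10 counts in every library, and 92 to 157 with 1 library left out, the fewest without 1h-1. Arms of the 3 miRNAs called were 4 with DESeq2 and 4 with no replicate block, beside 222 and 193 of all 469 arms tested. miR-126-5p was also called under scaling to the total (adjusted p = 0.0120) and with tags of 1 miRNA only (0.0489). miR-126-3p was called under the stricter filter (adjusted p = 0.0348), by the first 18 nt (0.0362) and with no replicate block (0.0448). By the first 18 nt miR-126-5p had a log2 fold change of -0.85 (adjusted p = 0.183). Leaving out 0.5h-1 or 0.5h-2 called miR-126-3p (adjusted p = 0.0472 and 0.0408), and leaving out 6h-1 or 6h-2 called miR-126-5p (adjusted p = 0.0318 and 0.0320). After ECS, DESeq2 called 1 arm at 0.5 h and 2 at 3 h, and no filter on low counts gave 1 at 3 h. The time course as a replicate block called 0 of the 6 arms at any time, with no share over all arms given beside it.

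Without the pairing, the exact permutation test gave adjusted p = 0.0292 for the log2 ratio of miR-145-5p to miR-145-3p (1.87), 0.0216 for miR-126-3p to miR-126-5p (2.47), 0.0364 for miR-143-3p to miR-145 (-0.87), and 0.00649 each for miR-143 (-2.86) and miR-145 (-1.996) to miR-126. Unpaired, 11 of the 20 tag measures passed in place of 0. No share over other miRNAs is given beside these unpaired tests. Leaving out 1 time point kept the direction of all 6 ratios.

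Reversed values were of results that had passed no test. miR-145-5p between time courses ran from -0.53 to 0.38 with 1 library left out and was 0.30 without both untreated libraries, at 1 h it ran from -1.57 to 0.60 and at 24 h from -2.15 to 0.51. miR-143-5p at 3 h ran from -0.13 to 5.42. The share of miR-126-3p at its shifted start differed by 0.623 points with at least 50 counts and by -9.67 to 0.987 with a time point left out, and that of miR-143-5p at its start by -0.432 to 0.678. The cause was not tested. miR-145-5p rested on 3 to 37 counts a library.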

Other observations

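Antisense reads were sought over the 3 hairpins. miR-143 had 5 exact antisense counts, 3 in 3h-1 and 1 each in 6h-1 and 24h-1, and miR-145 and miR-126 had 0. The hairpin annotated as miR-126b, opposite to miR-126, had no exact count.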
